A study of Mus musculus with 14 samples.

Results

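The microRNA (miRNA) content of small extracellular vesicles from unstimulated neutrophils was described from 7 libraries, all those labelled DMSO among the 14 libraries of the study. The vesicles, membrane particles that cells release, came from primary neutrophils, taken as Ly6G+ cells from bone marrow of wild-type (WT) female BALB/c mice and kept for 48 h with DMSO, the solvent used as vehicle. The other 7 libraries came from cells given 27HC, and no comparison with them was made. Vesicles were collected with a commercial kit, and QIAseq miRNA libraries were prepared from RNA purified by miRNeasy Micro. The labels number the libraries 1 to 7 and give each a further pair of numbers of unstated meaning, but do not say whether they came from separate mice, pools or cultures, so every spread given here may be partly technical. No intracellular RNA of the same cells was analysed here, so the values describe the vesicle preparations and not what was loaded into vesicles.

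A miRNA is a short RNA that guides Argonaute proteins to messenger RNAs and represses them. It is cut from a hairpin, whose 5′ side gives the 5p arm and whose 3′ side gives the 3p arm, and usually 1 arm is kept while its partner is degraded. Targets are recognised mainly through the seed, bases 2 to 8 of the mature miRNA, so miRNAs with an equal seed form a family, and neighbouring hairpins are often cut from 1 transcript and form a genomic cluster. In neutrophils miR-223-3p is the classical granulocyte miRNA, miR-142 marks blood cells in general, and miR-146a-5p restrains inflammatory signalling.

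The mature sequences that made up most of the counts are shown first, with the seed in capitals, because the ranking, the families and the clusters described afterwards follow from them. They are RefSeq sequences from the table of build GRCm38.p6, and 1431 of the 1695 names in the count table had one. The 5 most abundant miRNAs were:
miR-16-5p: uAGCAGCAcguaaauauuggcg
miR-223-3p: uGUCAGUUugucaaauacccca
miR-423-5p: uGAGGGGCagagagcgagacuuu
miR-25-3p: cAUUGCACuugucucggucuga
miR-93-5p: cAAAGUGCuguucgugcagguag

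The miR-15/16 family shares the seed of miR-16-5p. The members below were found in every library, and their sequences differ from miR-16-5p only outside the seed, by few or many bases:
miR-15a-5p: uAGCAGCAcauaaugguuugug
miR-15b-5p: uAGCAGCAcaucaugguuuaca
miR-322-5p: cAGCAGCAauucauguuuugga
miR-195a-5p: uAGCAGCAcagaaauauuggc

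The family of miR-93-5p is shown because its members have nearly equal sequences and very unequal counts:
miR-20a-5p: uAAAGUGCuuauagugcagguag
miR-17-5p: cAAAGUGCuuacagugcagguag
miR-106b-5p: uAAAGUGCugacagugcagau
miR-20b-5p: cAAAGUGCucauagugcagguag

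The let-7 family is shown because its counts were spread over many members that differ by few bases:
let-7i-5p: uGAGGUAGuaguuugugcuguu
let-7a-5p: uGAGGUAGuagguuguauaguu
let-7c-5p: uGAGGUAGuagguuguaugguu
let-7b-5p: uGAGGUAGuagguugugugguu
let-7f-5p: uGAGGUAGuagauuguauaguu

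The libraries held between 112914 counts (replicate 5) and 871189 counts (replicate 3). Scaled to 1000000 counts per library (CPM), a count of 0 therefore allows up to 3.44 CPM for replicate 3 and up to 26.6 CPM for replicate 5, a limit of 3 counts that covers counting error only. No library was a copy of another, since the closest of the 21 pairs differed by a chi-square of 5.40 per degree of freedom. Replicate 7 stood apart in several measures. It had the lowest share of miR-16-5p and miR-223-3p, the highest share of miR-423-5p and the most names detected, and the ranges and values without it are given below. Replicates 1 to 4 and replicates 5 to 7 also formed sets that differed in several measures, a split that was known from earlier results. The labels name no batch, and what moved with the split was not tested.

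A single miRNA, miR-16-5p, held 38.8% ± 3.66 of all counts (SD, n = 7), and miR-223-3p held a further 13.99% ± 2.72 (SD, n = 7). miR-16-5p restrains cell cycle genes in many cell types. Its share was lowest in replicate 7 at 32.2%, with a median of 38.6%, and highest in replicate 3 at 43.4%. It ranked first in all 7 libraries. miR-223-3p ran from 8.77% in replicate 7 through a median of 15.4% to 16.2% in replicate 3. It ranked next in 6 libraries, and in replicate 7 miR-423-5p stood above it. Without replicate 7 the means were 39.9% for miR-16-5p and 14.9% for miR-223-3p.

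miR-423-5p, the third by mean share at 4.56% ± 2.91 (SD, n = 7), varied most among the 20 most abundant names. It held 1.44% of counts in replicate 3, 2.58% in replicate 4, 2.78% in replicate 2, 3.37% in replicate 1, 5.08% in replicate 5, 6.91% in replicate 6 and 9.72% in replicate 7. Its rank within a library accordingly ran from 2 to 10. The mean was 5.07% without replicate 3 and 3.69% without replicate 7, and replicates 1 to 4 (mean 2.54%) all lay below replicates 5 to 7 (mean 7.24%).

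miR-25-3p and miR-93-5p, which are cut from neighbouring hairpins, came next with 3.77% ± 0.494 and 3.15% ± 0.259 (SD, n = 7). miR-25-3p ran from 3.16% to 4.77% with a median of 3.76%, and miR-93-5p from 2.72% to 3.54% with a median of 3.20%. Both were lowest in replicate 3 and highest in replicate 7. miR-148a-3p held 1.80% ± 0.188, miR-146a-5p 1.76% ± 0.225, miR-23a-3p 1.69% ± 0.292, miR-129-5p 1.49% ± 0.414 and miR-10a-5p 1.33% ± 0.158 (SD, n = 7). The other names of the first 20, from miR-21a-5p (1.27% ± 0.178) to miR-361-5p (0.712% ± 0.186), overlapped their neighbours in the ranges over libraries. They included miR-26a-5p, miR-142a-3p, miR-29a-3p, miR-15a-5p, miR-15b-5p and miR-221-3p, whose mean was 0.595% in replicates 1 to 4 and 1.004% in replicates 5 to 7.

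**Figure D1:**
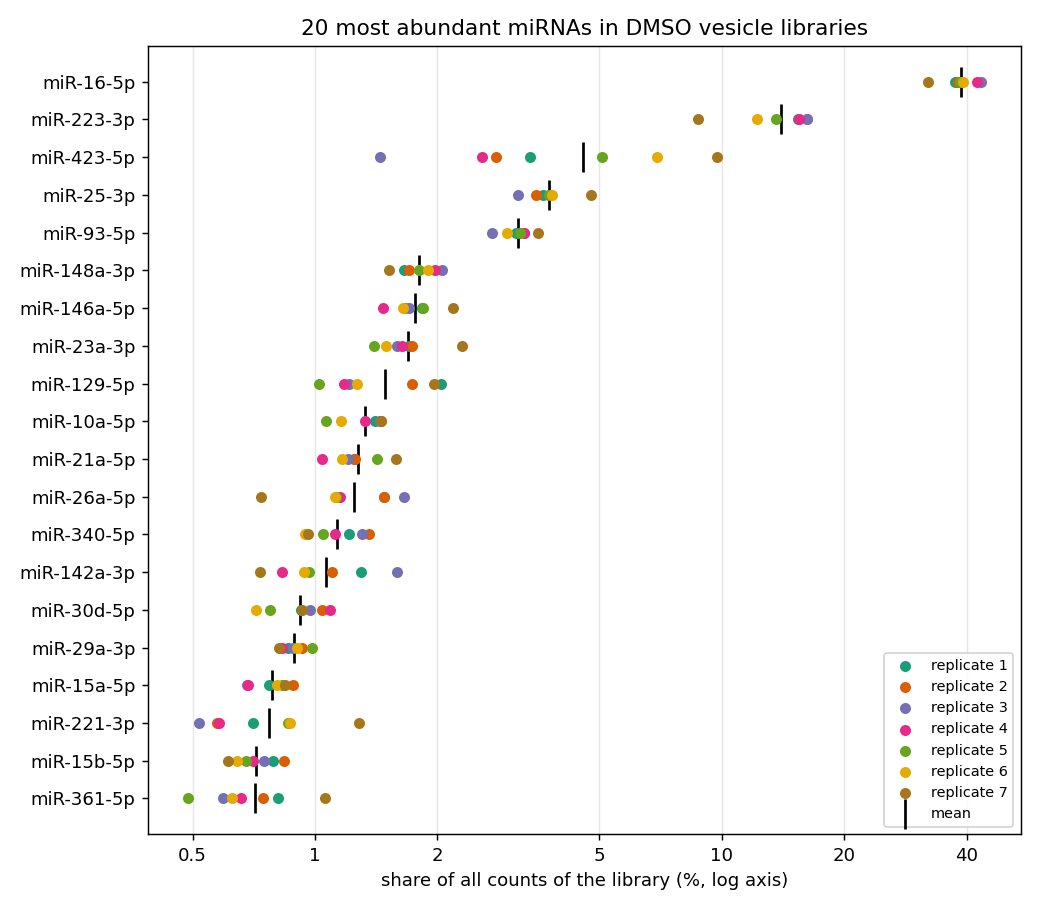
Share of all counts of a library (%, log axis) for the 20 most abundant miRNAs in DMSO vesicle libraries; points are the 7 libraries, coloured by replicate, and the black mark is their mean. miR-16-5p (32.2% to 43.4%) lies apart from all other names, and miR-423-5p spreads from 1.44% to 9.72%.

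Most neighbours in this ranking could not be ordered beyond the spread between libraries. Each of the 19 neighbouring pairs was compared by an exact two-sided sign permutation test of the log2 ratio over the 7 libraries, for which the smallest possible p is 0.0156. After Benjamini-Hochberg adjustment 0 of 19 pairs passed 0.05 (0% called), 5 had an unadjusted p under 0.05, and at least 6 pairs at the smallest p would have been needed for any call. The order was the same in every library for 3 of the 19 pairs (15.8%). These were miR-16-5p over miR-223-3p (mean log2 ratio 1.49 ± 0.223), miR-25-3p over miR-93-5p (0.25 ± 0.112) and miR-93-5p over miR-148a-3p (0.81 ± 0.256; SD, n = 7; exact adjusted p = 0.0990 for each). miR-423-5p stood above miR-25-3p in only 3 of 7 libraries (exact adjusted p = 0.938). Without replicate 7, 5 pairs kept 1 order in every remaining library.

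The repertoire was concentrated in few names. The 10 most abundant held 72.3% ± 2.28 of counts (SD, n = 7), from 68.4% in replicate 7 to 75.1% in replicate 4, and the first 20 held 81.8% ± 2.29. In the mean profile 2 names held 50% of counts, 39 held 90% and 200 held 99%. The effective number of names, the inverse of the summed squared shares, was 5.71 ± 1.06 (SD, n = 7), lowest in replicate 3 at 4.57 and highest in replicate 7 at 7.83.

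Detection followed a core and a long tail. Of the 1695 names, 367 had at least 1 count in every library and together held 99.5% of counts on average (99.1% in the lowest library). At least 10 counts in every library were reached by 172 names and at least 100 by 70. At the other end 143 names had no count in any library, and 368 were seen in exactly 1 library, 257 of them with a single count and none with more than 8. Of these 368, 117 were seen only in replicate 7, against 27 to 55 in each of the other libraries.

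The number of names with a count was 752, 753, 821, 746, 821, 865 and 1091 in replicates 1 to 7. Replicate 7 was the highest although its total, 252014 counts, lay among the lower ones. When all libraries were thinned to 112914 counts, the total of replicate 5, the expected number was 863 in replicate 7, 821 in replicate 5 and 761 in replicate 6, and between 435 and 566 in the other libraries. The deepest library, replicate 3, then had the fewest names. The libraries thus differed in the number of names at equal counts too, and what moved with it was not tested.

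**Figure D2:**
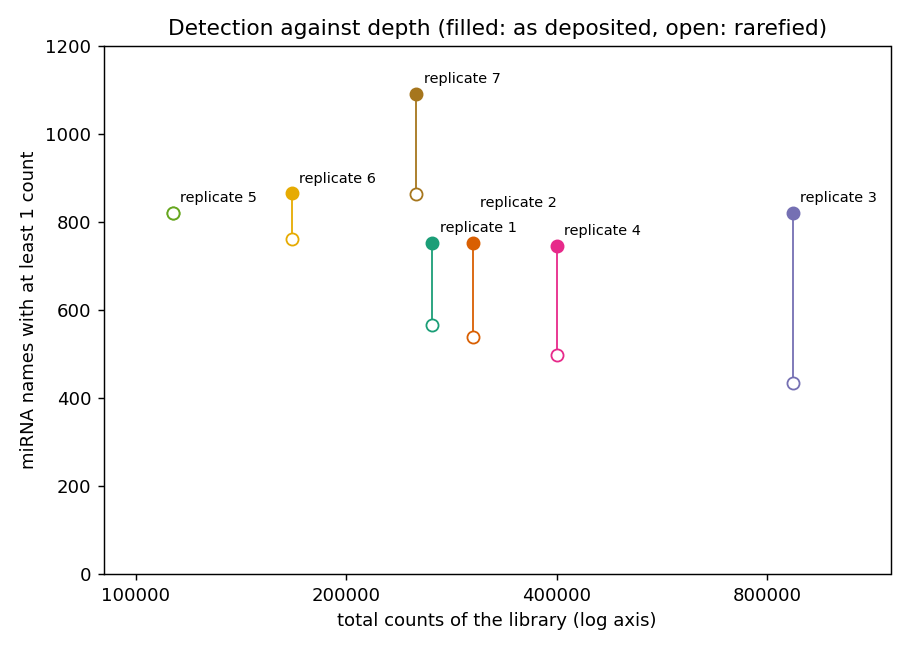
Names with at least 1 count against the total counts of each DMSO library (log axis); filled points are the deposited counts and open points the expected number after thinning to 112914 counts. Replicate 7 is highest in both (1091 and 863), and the 4 libraries numbered 1 to 4 fall to between 435 and 566.

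Grouped by seed, the counts fell into 1205 families, of which 1055 have 1 name. The 1431 names with a sequence held 96.7% of counts on average, and the other 264, the largest of which was miR-30d-5p, entered no family or cluster. The 10 most abundant families held 76.7% ± 1.76 (SD, n = 7), 2 families held 50% and 13 held 80%. Of the 40 names in the 10 most abundant families, 33 were counted in every library and 0 had no count.

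The miR-15/16 family (seed AGCAGCA), whose members repress cyclins and anti-apoptotic genes, held 40.9% ± 3.61 of counts (SD, n = 7), from 34.2% in replicate 7 to 45.4% in replicate 3. miR-16-5p supplied 94.7% ± 0.653 of it. miR-15a-5p supplied 1.94%, miR-15b-5p 1.76% and miR-322-5p 1.54%. miR-195a-5p, whose sequence resembles miR-16-5p along most of its length, had only 140 counts in all, and the count of miR-16-5p exceeded it by 5321-fold to 14544-fold in the single libraries.

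The seed families after it were mostly carried by 1 member too. Among names with a sequence, miR-223-3p, miR-23a-3p and miR-129-5p were alone with their seeds (miR-23b-3p, at 0.133% of counts, had no sequence in the table), and miR-423-5p shared its seed with miR-6921-5p, which had 5 counts. The miR-25/92 family (seed AUUGCAC) held 4.05% ± 0.557, of which miR-25-3p gave 93.1% and miR-92a-3p 6.12%. The family of miR-148a-3p (seed CAGUGCA) held 2.22% ± 0.223, of which miR-148a-3p gave 81.2%, miR-148b-3p 17.5% and miR-152-3p 1.27%. The miR-146 family (seed GAGAACU) held 1.79% ± 0.223, of which miR-146a-5p gave 98.5%. miR-146a-5p and miR-146b-5p differ at 2 of 22 bases (G18A and U21C, counted from the 5′ end, with the miR-146a-5p base first), and miR-146a-5p was 53.4-fold to 102-fold higher in the 7 libraries.

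The miR-17/20/93/106 family (seed AAAGUGC), known as growth-promoting miRNAs of dividing cells, held 3.69% ± 0.302 (SD, n = 7) in a very uneven way. miR-93-5p gave 85.4% ± 0.440 of the family and miR-20a-5p 13.8% ± 0.441, while miR-17-5p gave 0.569% and miR-106b-5p 0.0919%. miR-20a-5p and miR-17-5p differ at 2 of 23 bases (U1C and U12C, with the miR-20a-5p base first). The count of miR-20a-5p was 21.5 to 27.6 times that of miR-17-5p, with a median of 24.8, so this ratio barely moved between libraries. How the authors' counting divided reads that fit several near-identical names is not given in the sources used here, and the small values in this family are uncertain for that reason.

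let-7, a family that represses growth and stemness genes, was the exception among the abundant families. Its seed GAGGUAG held 2.34% ± 0.625 of counts (SD, n = 7), and 9 of its 10 names were found in every library. The name let-7j is not among them, since its sequence does not carry this seed. It had a mean of 1342 counts a library, beside 1360 for let-7a-5p. let-7i-5p led with 28.7% ± 2.10 of the family, followed by let-7a-5p with 18.5%, let-7c-5p with 15.7%, let-7b-5p with 13.5% and let-7f-5p with 9.28%. The family ran from 1.72% in replicate 2 through a median of 2.24% to 3.28% in replicate 7. Replicates 1 to 4 (1.72% to 2.24%, mean 1.87%) did not overlap replicates 5 to 7 (2.78% to 3.28%, mean 2.96%). let-7b-5p ran from 0.161% of all counts in replicate 3 to 0.714% in replicate 7. let-7a-5p and let-7c-5p differ at 1 of 22 bases (A19G), and let-7a-5p was the higher in 6 of 7 libraries.

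Among the 9 neighbouring pairs of families, 0 passed an adjusted p of 0.05 in the exact sign permutation test (0% called) and 5 had an unadjusted p under 0.05. At least 3 pairs at the smallest possible p would have been needed for any call, so the lack of calls does not show equal shares. The order was the same in all 7 libraries for 2 pairs (22.2%), the miR-15/16 family over miR-223-3p and the miR-93-5p family over let-7. The comparison of miR-16-5p's family with miR-223-3p largely repeats that of the names themselves.

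**Figure D3:**
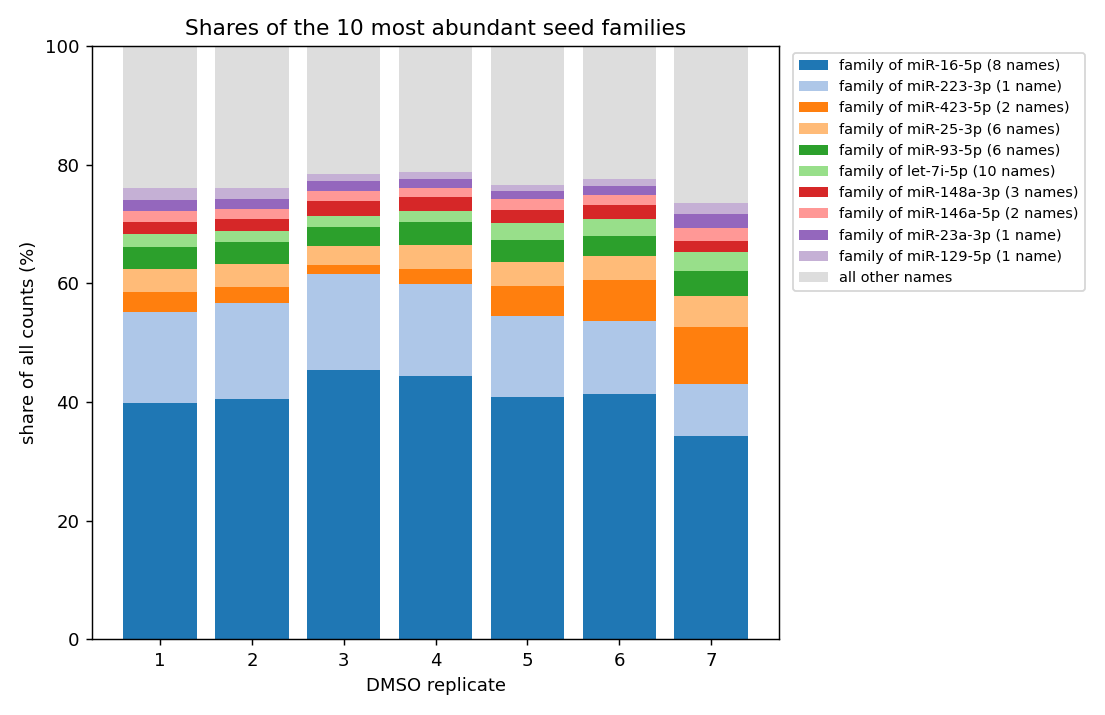
Share of all counts (%) of the 10 most abundant seed families in each of the 7 DMSO libraries, named by their leading miRNA and stacked from 0 to 100%, with all other names in grey. The family of miR-16-5p is the largest block in every library, from 34.2% in replicate 7 to 45.4% in replicate 3.

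By genomic origin, counts were assigned to hairpins of build GRCm38 on the same strand at most 10 kb apart, and a mature miRNA made from several hairpins was split equally between them. This gave 899 clusters and single hairpins, of which the 10 most abundant held 74.7% ± 2.65 (SD, n = 7). The 72 clusters of 2 or more hairpins held 58.4% ± 2.14. miR-16-5p is made from a pair of hairpins whose mature product is identical. Mir16-1 lies with Mir15a on chromosome 14 (chr14:61631880-61632096, minus strand) inside the noncoding gene Dleu2, and Mir16-2 lies with Mir15b on chromosome 3 (chr3:69009772-69009996, plus strand) in an intron of Smc4.

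The counts could not say which of these loci miR-16-5p came from. With an equal split each cluster held 20.2% of counts (Mir16-1/Mir15a 20.2% ± 1.77, Mir15b/Mir16-2 20.2% ± 1.86; SD, n = 7). From miRNAs made only there, the chromosome 14 cluster held 0.787% and the chromosome 3 cluster 0.781%. Counted in full in both, miR-16-5p raised each to 39.6%. The partner arms that are unique to a locus were nearly missing, with 16 counts of miR-16-1-3p and 45 of miR-16-2-3p beside 953137 of miR-16-5p over the 7 libraries. miR-15a-5p (0.785% ± 0.0785) and miR-15b-5p (0.716% ± 0.0809), which do belong to 1 locus each, overlapped in their ranges.

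The third locus was Mir223 on chromosome X (chrX:96242817-96242926, plus strand; an exon of the antisense gene F630028O10Rik) with 14.2% ± 2.70. Then came Mir25/Mir93/Mir106b (chr5:138165321-138165818, minus strand, inside Mcm7) with 7.03% ± 0.726, Mir423 (chr11:77078064-77078172, minus strand, an intron of Nsrp1) with 4.72% ± 2.92, and Mir23a/Mir27a/Mir24-2 (chr8:84208518-84208921, plus strand, in no other gene) with 2.17% ± 0.304 (SD, n = 7). Mir148a, Mir146, Mir10a and Mir142, all single hairpins, followed with 1.30% to 1.80%. Of the 9 neighbouring pairs, 4 passed the exact sign permutation test (44.4% called), each with the same order in all 7 libraries and an adjusted p of 0.0352. These were Mir15b/Mir16-2 over Mir223 (with the equal split), Mir223 over Mir25/Mir93/Mir106b, Mir23a/Mir27a/Mir24-2 over Mir148a (also with the equal split), and Mir146 over Mir10a. The Mir23a/Mir27a/Mir24-2 share holds a split part of miR-24-3p. From miRNAs made only there the cluster held 1.92%, beside 1.80% for Mir148a, and that order was not tested. The order was taken from the same libraries, so the test gives no independent support for it.

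In the clusters described here, mature miRNAs from hairpins of 1 cluster often had unlike counts, and what set these differences was not tested. Main arms could also be close, as in Mir191/Mir425, where miR-425-5p held 0.398% and miR-191-5p 0.338% of counts. In Mir25/Mir93/Mir106b, miR-25-3p held 3.77% and miR-93-5p 3.15% of counts, while miR-106b-3p held 0.0938% and miR-106b-5p 0.00334%. miR-93-5p exceeded miR-106b-5p by 637-fold to 2971-fold in the 7 libraries, with as few as 3 counts of miR-106b-5p in a library. In Mir23a/Mir27a/Mir24-2, miR-23a-3p held 1.69%, miR-24-3p 0.496% (it is also made from a second cluster) and miR-27a-3p 0.222%.

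The Mir17-92 cluster (chr14:115043671-115044506, plus strand, in exons of Mir17hg) held 0.939% ± 0.0810 (SD, n = 7), with 6 hairpins cut from 1 transcript. Within it miR-20a-5p held 0.511% ± 0.0453, miR-19b-3p 0.369% ± 0.0488, miR-92a-3p 0.250% ± 0.0620, miR-19a-3p 0.0837% ± 0.00981, miR-17-5p 0.0210% ± 0.00260 and miR-18a-5p 0.00507% ± 0.00257 (SD, n = 7). miR-19b-3p and miR-92a-3p are also made elsewhere. The ranges of miR-20a-5p (0.456% to 0.582%) and miR-17-5p (0.0173% to 0.0248%) did not come near each other. The Mir322-450 cluster (chrX:53047997-53054349, minus strand, 7 hairpins in no other gene) held 0.956% ± 0.0661 (SD, n = 7), and miR-322-5p, a member of the miR-15/16 family by its seed, was 0.624% ± 0.0659 of all counts in it. miR-503-5p (0.111% ± 0.0109) and miR-351-5p (0.0823% ± 0.0291) came next.

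**Figure D4:**
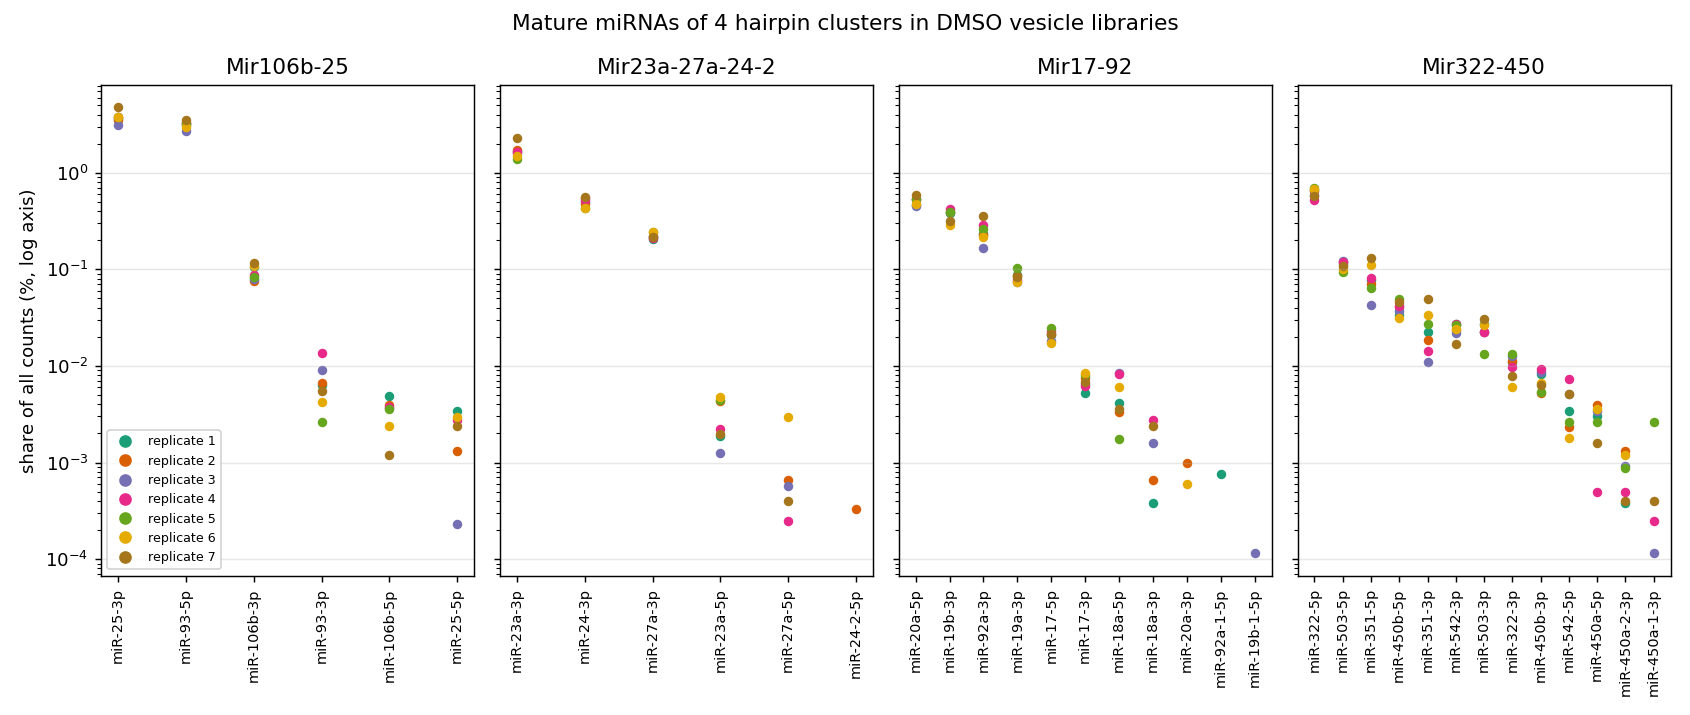
Share of all counts (%, log axis) of each mature miRNA of 4 hairpin clusters; points are the 7 DMSO libraries, and libraries with a count of 0 are not drawn. Within Mir106b-25 miR-25-3p has a mean of 3.77% and miR-106b-5p one of 0.00334%, and within Mir17-92 miR-20a-5p has 0.511% and miR-17-5p 0.0210%; some minor arms lie lower still.

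Arm use was examined in hairpins whose 5p and 3p names form a pair. Their sequences are shown for a hairpin with a 3p preference, one with a 5p preference, one that keeps part of both arms and one in balance, with both mature arms in capitals, 5p first. The loci are those given above for Mir223 and Mir423, chr11:87756864-87756927 (plus strand, an intron of Mir142hg) for Mir142, and chr13:48536012-48536114 (minus strand) for Mirlet7d:
Mir223: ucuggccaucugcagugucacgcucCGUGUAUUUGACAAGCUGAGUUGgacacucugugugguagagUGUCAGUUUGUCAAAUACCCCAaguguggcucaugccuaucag
Mir423: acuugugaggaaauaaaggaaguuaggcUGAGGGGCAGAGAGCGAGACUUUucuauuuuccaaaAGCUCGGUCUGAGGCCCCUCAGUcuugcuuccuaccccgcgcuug
Mir142: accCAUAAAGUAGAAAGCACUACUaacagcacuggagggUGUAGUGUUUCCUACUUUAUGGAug
Mirlet7d: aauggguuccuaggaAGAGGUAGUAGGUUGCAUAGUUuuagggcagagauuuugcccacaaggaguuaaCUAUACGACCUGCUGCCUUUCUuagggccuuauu

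Most of the tested pairs had a dominant arm. Of 585 pairs in the table, 111 had at least 10 counts of both arms together in every library and were tested by edgeR's quasi-likelihood test with the library as a term. 59 pairs had more 5p (53.2% called) and 45 more 3p (40.5%) at a Benjamini-Hochberg adjusted p under 0.05, so 104 of 111 (93.7%) were called and 7 were not. A call shows only that the arms differed, and the same arm was the higher in every library for 102 pairs. In 76 pairs 1 arm held more than 90% of the pair's counts in every library, and in 29 more than 99%. The minor arm held 1.86% of a pair's counts in the median. No pair holds miR-16-5p or miR-129-5p, whose 3p names carry a locus number. Some counts may enter more than 1 pair. The 5p arms of miR-486a and miR-486b both had 1597 counts, and the 3p arms of miR-199a and miR-199b both had 1251. miR-122-5p had 6881 counts and miR-122b-3p 6748, so nearly equal counts gave a 5p call for miR-122 and a 3p call for miR-122b. With such names merged 58 pairs had more 5p and 43 more 3p.

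The 10 most abundant pairs each kept 1 arm above 78% in every library. miR-223 was 98.7% 3p (97.7% to 99.1%), miR-25 99.95% 3p, miR-148a 99.9% 3p and miR-23a 99.8% 3p. miR-93 was 99.8% 5p, miR-21a 99.8% 5p and miR-10a 96.8% 5p. miR-146a had 40953 counts of its 5p arm and 1 of its 3p arm. miR-423 was 95.3% ± 2.77 5p (SD, n = 7), and its 5p share was lowest in replicate 3 at 90.6%, where its total share was lowest too. All 10 were called with edgeR adjusted p of at most 6.08e-09.

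miR-142a was the abundant pair with the most even arms. Its 5p arm held 18.03% ± 2.01 of the pair's counts (SD, n = 7), lowest in replicate 6 at 16.1%, with a median of 17.2%, and highest in replicate 2 at 21.9%. Both arms of miR-142 are regarded as functional in blood cells. Among lesser pairs miR-140 was 24.4% ± 3.42 5p and miR-351 77.3% ± 4.84 5p (SD, n = 7). miR-106b, whose 5p arm carries the miR-17 family seed, was 3.60% ± 1.45 5p (SD, n = 7), with its 3p count 19.2-fold to 98.3-fold higher. miR-17, of the same family, was 75.1% ± 4.04 5p. The higher arm thus differed between these 2 pairs.

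The 7 pairs not called had mean 5p shares between 43.9% and 59.8%: let-7d, miR-129b, miR-139, miR-126a, miR-674, miR-3068 and miR-181c, with a lowest unadjusted p of 0.0598 in the edgeR test. For miR-126a the balance is uncertain, since the counts of miR-126a-5p lay within 0.0229 of those of miR-126b-3p on the log2 scale. let-7d was 50.9% ± 6.79 5p, from 43.8% in replicate 2 through a median of 48.4% to 61.9% in replicate 5. Its higher arm turned between the sets of libraries, with 43.8% to 48.4% in replicates 1 to 4 and 54.6% to 61.9% in replicates 5 to 7 (log2 ratios of 5p to 3p of -0.23 and 0.43, edgeR adjusted p = 0.158 and 0.125). miR-139 was 48.7% ± 8.87 5p, from 35.9% in replicate 6 through a median of 49.0% to 61.1% in replicate 3, and turned the other way, with 49.0% to 61.1% in replicates 1 to 4 (log2 ratio 0.30, edgeR adjusted p = 0.129) and 35.9% to 43.0% in replicates 5 to 7, where it was called (log2 ratio -0.57, edgeR adjusted p = 0.0445). miR-129b was 43.9% ± 6.34 5p (SD, n = 7), and without replicate 7 it was called, with a log2 ratio of 5p to 3p of -0.47 and an edgeR adjusted p of 0.0152. Its hairpin (chr2:94241378-94241442, plus strand) lies opposite Mir129-2 (chr2:94241364-94241453, minus strand). Whether counts of the miR-129b arms belong to Mir129-2 was not tested, so this balance is uncertain too. The let-7d-5p count enters the let-7 family above, while let-7d-3p, of nearly equal abundance, has another seed.

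**Figure D5:**
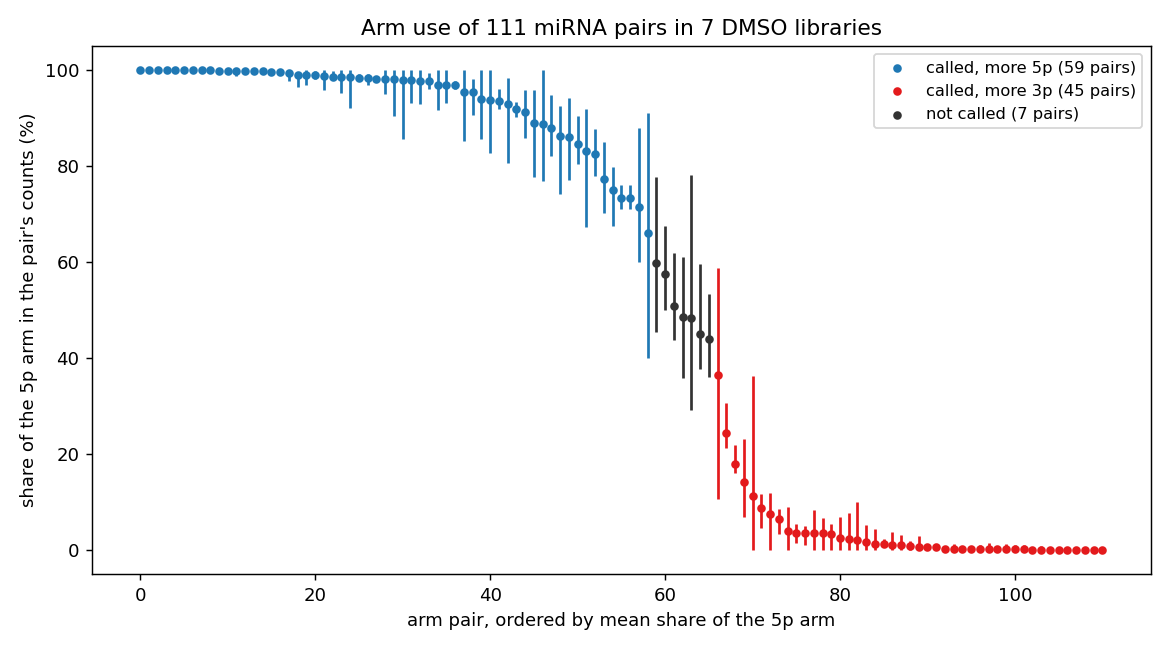
Share of the 5p arm in the counts of each of 111 tested pairs (%), ordered by its mean; points are means over 7 DMSO libraries, vertical lines run from the lowest to the highest library, and colours give the edgeR call. Most pairs lie near 0 or 100%, and the 7 pairs not called lie between 43.9% and 59.8%.

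The spread between libraries was small for most abundant miRNAs. It was measured as the biological coefficient of variation of edgeR, the relative SD between libraries beyond counting error, and had a median of 0.247 (quartiles 0.202 and 0.314) over the 180 names kept by edgeR's low-count filter. Among names with a mean of at least 100 counts it was lowest for miR-93-5p (0.147), miR-15a-5p (0.149), miR-20a-5p (0.149), miR-25-3p (0.157) and miR-146a-5p (0.158). For miR-15a-5p the libraries ran from 6795 CPM through a median of 8064 to 8830 CPM, a 1.30-fold range.

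It was highest for miR-184-3p (0.640), the muscle miRNA miR-1a-3p (0.607), miR-129-2-3p (0.545), miR-298-5p (0.510) and miR-423-5p (0.474). miR-184-3p ran from 103 CPM in replicate 7 through a median of 257 to 867 CPM in replicate 2. miR-1a-3p ran from 101 CPM in replicate 3 through a median of 443 to 1178 CPM in replicate 5, an 11.7-fold range. miR-298-5p was lowest in replicate 3 at 327 CPM and highest in replicate 7 at 2480 CPM, as was miR-423-5p. Across 100 of these names with a sequence, the Spearman correlation of the spread with GC content was 0.271 and with mean count -0.467, a description across names that share libraries.

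Whole profiles ranked alike among abundant names and less so in the tail. Over the 21 pairs of libraries Spearman's correlation ran from 0.598 to 0.721 across the 1552 names with any count, and from 0.841 to 0.967 across the 262 names with a mean of at least 10 counts. On the latter names the correlations were 0.928 to 0.967 within replicates 1 to 4 (6 pairs), 0.935 to 0.961 within replicates 5 to 7 (3 pairs) and 0.841 to 0.925 between these sets (12 pairs).

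The sequences of the cargo were described over the 1431 names with a sequence, beside what an equal weight for each name gives, and these shares and those of motifs are of the counts of these names. Names starting with U were 41.1% of names but held 82.0% ± 2.15 of counts (SD, n = 7). Without miR-16-5p they held 70.0% ± 1.81, and without miR-16-5p and miR-223-3p 60.3% ± 1.92. GC content weighted by counts was 45.6% ± 0.672, from 44.8% in replicate 3 to 46.9% in replicate 7, against 52.9% over names. Names of 22 bases held 77.6% ± 4.09 of counts and were 45.6% of names. Without miR-16-5p and miR-223-3p they held 51.1% ± 2.46 (SD, n = 7). They were 53.7% of the names found in every library.

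Short motifs that have been discussed in vesicle sorting were searched in the mature RNA strand as exact letters. GGAG was in 14.95% of names, which held 1.83% ± 0.351 of counts, and CCCU in 12.2% of names, which held 2.68% ± 0.274 (SD, n = 7). GGCU was in 13.98% of names, which held 6.99% ± 0.847, led by miR-129-5p and miR-26a-5p. UCAGU was in 3.63% of names, which held 18.05% ± 2.80 and were led by miR-223-3p. Without miR-16-5p and miR-223-3p the share was 8.05% ± 1.22 (SD, n = 7). With the same names left out GGCU held 15.5% ± 1.78, near its share of names. GGAG then held 4.05% ± 0.779 and CCCU 5.94% ± 0.597 (SD, n = 7). A match of letters is a description and shows no use as a signal.

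miRNAs that mark cell types were then read against the labelled source. All 7 members of a myeloid list were found in every library and together held 18.5% ± 2.70 of counts (SD, n = 7), from 13.6% in replicate 7 to 21.2% in replicate 3. They were led by miR-223-3p (13.99%), miR-146a-5p (1.76%) and miR-21a-5p (1.27%). Both arms of miR-142a are in the list too, although miR-142 marks blood cells in general. miR-155-5p, which rises in activated myeloid cells, was scarce at 0.00910% ± 0.00437, with 226 counts in all.

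Lists for other cell types each held 0.332% of counts or less on average, and their part in the results above was not tested. The erythroid list (5 of 5 in every library) held 0.106% to 0.204%, with its defining members miR-451a and miR-144-3p at 67 and 61 counts over all libraries. Most of it was miR-486a-5p and miR-486b-5p, which hold identical counts, and with these counted once the mean was 0.0767%. The lymphoid list (3 of 3) held 0.163% to 0.227%, the endothelial list (2 of 2) 0.0568% to 0.115% (its mean of 0.0790% was 0.0435% without miR-126a-5p, whose counts nearly equal those of miR-126b-3p), and the epithelial list (6 of 6) 0.0230% to 0.0458%. The stromal and muscle list (9 of 10 in every library) held 0.104% to 0.282%, and its member miR-199b-5p had no count in 2 libraries. The muscle miRNA miR-206-3p had 279 of its 329 counts in replicate 2. miR-122-5p, the liver miRNA, held 0.332% ± 0.112 (SD, n = 7), from 0.208% in replicate 3 to 0.543% in replicate 7 (means of 0.259% in replicates 1 to 4 and 0.429% in replicates 5 to 7). Its mean over all 7 libraries was above that of every other list but the myeloid one. The counts of miR-122-5p lay within 0.0490 of those of miR-122b-3p on the log2 scale, and whether both hold the same reads was not tested.

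Names with high registry numbers, which are often rarely seen miRNAs, were many but scarce. The 851 names numbered 2000 or above were 50.2% of all names and held 2.45% ± 0.477 of counts (SD, n = 7), and 81 of them were found in every library. The most abundant were miR-3473b (0.498% ± 0.191), miR-3473e (0.493% ± 0.192) and miR-3074-5p (0.314% ± 0.0366). miR-3473b and miR-3473e differed by at most 0.0472 on the log2 scale in any library, and whether they hold the same reads was not tested. With such names merged the share was 1.98%.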

How the data were processed

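Small RNA from vesicles was counted per mature miRNA. The authors deposited raw counts, whole numbers for 1695 names, per the file headers and values, and 0 columns or rows stayed unmatched to a label. Per the submitters' processing notes, GRCm39 (mm39), R 4.1.2, edgeR and limma were named without a role. The aligner, the counting tool and the use of the kit's molecular identifiers are not given in the sources used here, so a count may be a read or a molecule.

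Shares are percentages of a library's total count, averaged over libraries with equal weight, except that shares by first base, length or motif are of the counts of names with a sequence. Sequences and positions came from RefSeq GRCm38.p6 and host genes from GENCODE M21. That build differs from the submitters' GRCm39, so positions describe the annotation only. Arms were tested with edgeR 4.0.16 in R 4.3.3 with library totals as sizes, and spread used TMM and filterByExpr (minimum count 10, minimum total 15). Neighbours in an order were compared on log2 ratios with 0.5 added to both counts. Each order came from the mean shares of the same 7 libraries, so pairs and directions were not chosen independently of the values tested. On simulated counts for 585 pairs, with 200 changed 4-fold, all 50 changed pairs past the filter and 1 of 69 unchanged pairs were called, and 0 of 114 with no change. For the spread a simulated coefficient of 0.3 was estimated as 0.293 in the median.

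The names described are the 20 names, 10 families and 10 clusters of highest mean share, the 10 most abundant, 5 most balanced and 3 most variable arm pairs with at least 100 counts in every library, the 5 highest and lowest spreads at a mean of at least 100 counts, and the leading members of the marker and motif lists. miR-195a-5p, the Mir17-92, Mir322-450 and Mir191/Mir425 clusters, the miR-106b, miR-17, miR-122 and miR-122b pairs, let-7b-5p and miR-206-3p were added after their values were seen. The members and lists were chosen with earlier results of these data known. Alternatives covered libraries left out, replicates 1 to 4 or 5 to 7 alone, filters, scaling, tools (limma 3.58.1, DESeq2 1.42.0), seed length, cluster gap and merged names.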

Additional observations from a re-analysis of the deposited data

Results flagged for a closer look

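Of 69 groups of 7 DMSO values examined, 10 had a highest or lowest library far from the others, where chance gives about 3.45 (1 in 20). In 7 of these the far library was replicate 7. It had the most names with a count, 1091, and the highest shares of miR-25-3p (4.77%), miR-23a-3p (2.30%), the miR-25/92 family (5.17%), the Mir23a/Mir27a/Mir24-2 cluster (2.81%) and miR-298-5p (0.248%), and the lowest share of the epithelial list (0.0230%). The family and the cluster hold the same leading names, so these are not separate findings. Replicate 3 had the highest total, 871189 counts. Replicate 5 had the highest share of the stromal and muscle list, 0.282%. Replicate 6 had the lowest 5p share of miR-146a, 99.96%, which rests on the 1 count of miR-146a-3p.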

How the results depend on the processing

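With each library left out in turn, the 10 most abundant names held 71.8% to 73.0%, the leading family 40.2% to 42.0% and the leading cluster 19.8% to 20.7%. Names in every library numbered 375 to 398, the lowest rank correlation was 0.585 to 0.610, and 3 to 5 neighbours kept 1 order (5 without replicate 7). With replicates 1 to 4 alone 6 neighbours did so and the lowest rank correlation was 0.665. With replicates 5 to 7 alone 8 did so, 551 names were in every library and the median spread was 0.201; fewer libraries make agreement easier. At least 10 counts left 172 names in every library, and a mean of at least 10 counts raised the lowest rank correlation to 0.841. The median spread was 0.219 at a mean of at least 100 counts, 1.22 with no filter and 0.337 as an SD of log2 CPM. The leading cluster held 39.6% with shared miRNAs counted in full and 0.787% without them. Pairs with more 5p and more 3p numbered 38 and 27 at a sum of at least 50 counts, and 115 and 106 with no filter, which change how many pairs were tested.

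The arm test has the library as its replicate block; with no replicate block 58 pairs had more 5p and 44 more 3p. DMSO and 27HC were not compared, so no pairing between them was used. miR-129b gained a call at a sum of at least 50 counts and in replicates 1 to 4 alone, and miR-139 in replicates 5 to 7 alone (log2 ratio -0.57). Of 49 shares compared between replicates 1 to 4 and 5 to 7, 6 differed by over 1.5 times: miR-423-5p, its family and its cluster, miR-221-3p, let-7 and miR-122-5p. Of 225 arm ratios recomputed, 221 kept their call; let-7d and miR-139 changed sign between these sets. Depth limits the tail most: in the shallowest library 3 counts are 26.6 CPM. Whether libraries are separate animals is not stated.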
